A study of Mus musculus with 10 samples.

Results

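The genes described here are haematopoietic niche factors made by stromal cells, and they were chosen by name as *Kitl*, *Cxcl12*, *Vcam1*, *Angpt1*, *Il7*, *Flt3l*, *Thpo* and *Csf1*. Of these 8 genes, 7 were found by symbol among the 26888 genes measured, and *Flt3l* is not analysed here. Stem and progenitor cells of the blood depend on such stromal products in the marrow and in the embryo. *Kitl* (stem cell factor), *Flt3l* and *Csf1* (M-CSF) are ligands of the related receptor tyrosine kinases KIT, FLT3 and CSF1R, and *Angpt1* is the ligand of the receptor tyrosine kinase TEK. *Cxcl12* is the chemokine that retains stem cells in the marrow through CXCR4, and *Vcam1* is the adhesion molecule that blood cells bind with integrins. *Il7* drives lymphoid progenitors, and *Thpo* drives megakaryocytes and maintains stem cells.

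OP9 is a mouse stromal line from calvaria, labelled as foetal and of the strain (C57BL/6xC3H)F2-op/op, that supports the maturation of haematopoietic stem cells in culture. The *op* allele is a mutation of *Csf1* itself that leaves the cells without functional M-CSF, and every library here carries it, so that the *Csf1* transcripts measured came from the mutant gene. RNA sequencing compared OP9 cells in 6 reaggregates with OP9 cells in 4 flat submersed cultures, to find what aggregation and the liquid-gas interface change in a stroma that supports stem cells. For the reaggregates, cells were dispersed with trypsin, pelleted, and kept for 48 h on nitrocellulose filters with 0.8-µm pores. Of these, 3 (reaggregates 2, 4 and 6) received IL-3, labelled as 200 µg/µl in a unit that could not be checked, and 3 (reaggregates 1, 3 and 5) did not. They were taken apart with collagenase and dispase before RNA extraction, a step that the flat cultures' labels do not give. The label of flat cultures 2 and 4 names the de Bruijn laboratory, and flat cultures 1 and 3 carried no laboratory in the label. The reaggregates carried no laboratory in the label either. Aggregation, the interface, the filter, the enzymes and the source of the cells cannot be told apart as sources of a difference between reaggregates and flat cultures.

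Values are RPM, the reads of a gene after each library's reads assigned to genes were scaled to a total of 1000000. The depth, estimated from the RPM of 1 read, was 7352941 to 9433962 reads in the reaggregates and 8264463 to 8695652 in the flat cultures. The floor of 3 reads, the smallest amount taken as detected, corresponded to 0.318 to 0.408 RPM. This floor covers counting error only. Consecutive reaggregates (1 and 2, 3 and 4, 5 and 6) resembled each other closely: the root mean square difference of log2 values over all tested genes was 0.28 to 0.29 within these 3 pairs and 0.53 to 0.76 in the other 12 pairs of reaggregates. The flat cultures divided by label, with differences of 0.50 and 0.73 within a label and 1.01 to 1.16 between labels. Each reaggregate was nearer to flat cultures 1 and 3 than to flat cultures 2 and 4. These differences were 0.69 to 1.17 for flat cultures 1 and 3 and 1.11 to 1.34 for flat cultures 2 and 4. The labels do not say whether replicates were separate cultures, so p-values may measure only technical spread. For that reason the members' calls are also given with consecutive reaggregates averaged to 3 samples, and against each set of flat cultures where this ends a call.

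Reaggregation was accompanied by lower *Kitl* and *Csf1* and by higher *Vcam1* and *Angpt1*. These 4 of the 7 measured factors were called, which means a fold change of at least 2 with an adjusted p of at most 0.05 in limma over 16933 genes, and *Cxcl12*, *Il7* and *Thpo* were not. Of all genes tested, 7.32% were called up and 6.53% down (1239 and 1106 genes), against 2 members in each direction. In whole-culture RNA, fewer cells of a type and less RNA per cell cannot be told apart. With the consecutive reaggregates averaged, none of the 7 was called by limma, with adjusted p of 0.061 to 0.19 for the 4, while over all genes 312 were then called up and 429 down.

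**Figure D1:**
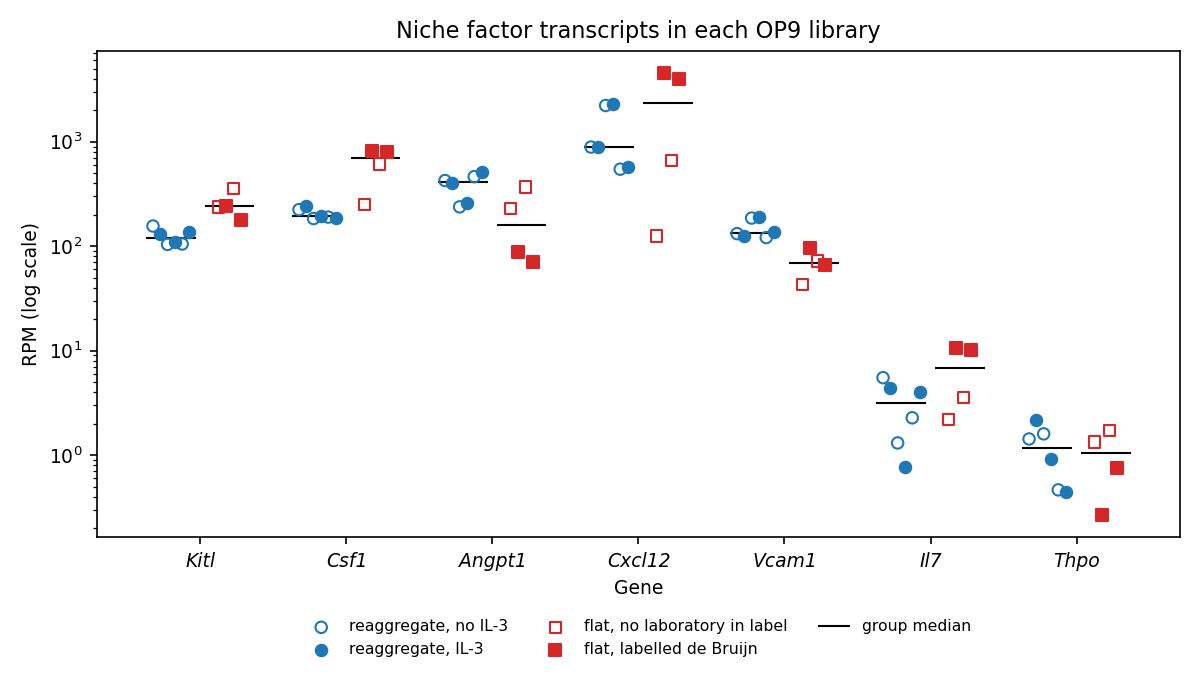
RPM of the 7 measured niche factors (horizontal axis) in each of 10 OP9 libraries, on a logarithmic vertical axis. Circles are reaggregates (filled with IL-3), squares are flat cultures (filled where labelled de Bruijn), and lines are group medians; *Kitl* and *Csf1* lie lower and *Vcam1* higher in each of the 6 reaggregates than in any of the 4 flat cultures, and *Cxcl12* spans 125 to 4560 RPM within the flat cultures.

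*Kitl* encodes stem cell factor, which is made as membrane-bound and soluble forms from alternatively spliced transcripts; the values here sum over them. The gene (ENSMUSG00000019966) lies at chr10:99478264-99563047 on the forward strand in NCBIM37. Its transcripts stood at 156, 131, 104, 109, 105 and 137 RPM in reaggregates 1 to 6, and at 238, 245, 356 and 180 RPM in flat cultures 1 to 4. The groups did not overlap: the highest reaggregate was below the lowest flat culture. Reaggregates averaged 124 ± 21.1 RPM (SD, n = 6), and flat cultures averaged 255 ± 73.5 RPM (SD, n = 4). The log2 fold change was −1.01 (SE 0.19, limma adjusted p = 0.00386), just past the 2-fold limit. Without reaggregate 3, 4 or 5 or flat culture 3 it was −0.97, −0.98, −0.97 and −0.84 and so within that limit, and against the flat cultures labelled de Bruijn it was −0.78 (adjusted p = 0.00797). Averaging the consecutive reaggregates gave the same fold change with an adjusted p of 0.061, and over 23 alternative settings the adjusted p ran from 0.00215 to 0.067.

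*Csf1*, the macrophage growth factor that is mutated in this line, showed the larger fall against all 4 flat cultures. Against those with no laboratory in the label *Kitl* fell more, with a log2 fold change of −1.25. The gene (ENSMUSG00000014599) lies at chr3:107543966-107563387 on the reverse strand in NCBIM37. Reaggregates 1 to 6 had 224, 241, 184, 195, 190 and 188 RPM of it, and flat cultures 1 to 4 had 252, 811, 613 and 798 RPM. Flat culture 1 was thus close to the highest reaggregate, and the other 3 flat cultures were far above it. Flat cultures averaged 618.5 ± 261 RPM (SD, n = 4), whereas reaggregates averaged 204 ± 23.2 RPM (SD, n = 6). On the log2 scale *Csf1* fell by 1.47 (SE 0.29, adjusted p = 0.00431 by limma). The call was lost against the flat cultures with no laboratory in the label (−0.95, adjusted p = 0.0501) and with consecutive reaggregates averaged (adjusted p = 0.0713), and the adjusted p ranged from 5.52e-06 to 0.0784 over 23 settings.

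*Angpt1*, a ligand of TEK that stromal cells make, changed the other way from *Kitl* and *Csf1*. The gene (ENSMUSG00000022309) lies at chr15:42256273-42508523 on the reverse strand in NCBIM37. Reaggregates 1 to 6 held 425, 401, 238, 257, 463 and 510 RPM, and flat cultures 1 to 4 held 231, 88.4, 369 and 70.6 RPM. The groups overlapped, since flat culture 3 was above reaggregates 3 and 4, and flat cultures 2 and 4 were far below all others. The average over reaggregates was 382 ± 111 RPM (SD, n = 6), beside 189.8 ± 139 RPM (SD, n = 4) for flat cultures. The rise of 1.27 on the log2 scale (SE 0.43, adjusted p = 0.0446 by limma) rested on the flat cultures labelled de Bruijn. It was 2.21 against those and 0.33 (adjusted p = 0.508) against the other flat cultures. Leaving out flat culture 2 or 4 gave 1.01 and 0.90 (adjusted p = 0.124 and 0.148), and without reaggregate 1, 2, 4, 5 or 6 the adjusted p was 0.0829, 0.0805, 0.0531, 0.0737 and 0.0733. It was 0.19 with consecutive reaggregates averaged, and 0.000284 to 0.508 over 23 settings.

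*Cxcl12* was the factor with the widest spread between libraries. The gene (ENSMUSG00000061353) lies at chr6:117118553-117131385 on the forward strand in NCBIM37. Its RPM in reaggregates 1 to 6 was 889, 898, 2220, 2300, 546 and 573, and in flat cultures 1 to 4 it was 125, 4560, 662 and 3990. Consecutive reaggregates had almost the same value, and the flat cultures labelled de Bruijn were above every reaggregate while flat culture 1 was below every one. Averages were 1238 ± 806 RPM for reaggregates (SD, n = 6) and 2334 ± 2264 RPM for flat cultures (SD, n = 4), and the log2 fold change of −0.09 had an SE of 0.90 and a limma adjusted p of 0.945. The 95% interval of −2.06 to 1.88 leaves room for a change of more than 2-fold in either direction. Against the flat cultures labelled de Bruijn alone *Cxcl12* was lower in reaggregates, with a log2 fold change of −2.03 (adjusted p = 0.014), and against the other flat cultures the value was 1.85 (adjusted p = 0.115). The adjusted p ran from 0.014 to 0.992 over 23 settings.

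A list of 7 adipocyte markers had its 4 highest sums in the libraries where *Cxcl12* was highest. Its summed level in reaggregates 1 to 6 was 346, 347, 626, 691, 255 and 270.1 RPM, and in flat cultures 1 to 4 it was 369.6, 1385, 528 and 1457 RPM. Different genes carried these sums. In reaggregates 3 and 4 most of it was *Lpl*, the most abundant gene of the list, at 508 and 558 RPM, whereas in flat cultures 2 and 4, with *Lpl* at 365 and 331 RPM, *Pparg*, *Cebpa* and *Fabp4* made up the larger share. Flat culture 1, the lowest for *Cxcl12*, had a higher sum than reaggregates 1, 2, 5 and 6. The part of these markers in the spread of *Cxcl12* was not tested.

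*Vcam1* encodes the adhesion molecule by which progenitors hold on to stroma. The gene (ENSMUSG00000027962) lies at chr3:115812938-115832606 on the reverse strand in NCBIM37. Its level across reaggregates 1 to 6 was 132, 124, 186, 192, 121 and 137 RPM, whereas across flat cultures 1 to 4 it was 42.9, 97.1, 72.0 and 66.8 RPM. All 6 reaggregates were above all 4 flat cultures. *Vcam1* rose from an average of 69.7 ± 22.2 RPM in flat cultures (SD, n = 4) to 149 ± 31.8 RPM in reaggregates (SD, n = 6), by 1.12 on the log2 scale (SE 0.22, adjusted p = 0.00479 by limma). It came under the 2-fold limit without flat culture 1 (0.91, adjusted p = 0.0107) and against the flat cultures labelled de Bruijn (0.85, adjusted p = 0.0108). Averaging consecutive reaggregates gave an adjusted p of 0.0652, within 0.00303 to 0.0673 over 23 settings. *Vcam1* was among 7.80% of tested genes that lay higher in every reaggregate than in any flat culture, and *Kitl* and *Csf1* were among 11.4% that lay lower.

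*Il7* and *Thpo*, the cytokines of lymphoid and megakaryocyte progenitors, were near the low end of the measured range. *Il7* (ENSMUSG00000040329, chr3:7572036-7613722, reverse strand, NCBIM37) measured 5.52, 4.35, 1.31, 0.768, 2.28 and 4.03 RPM over reaggregates 1 to 6, whereas over flat cultures 1 to 4 it measured 2.19, 10.7, 3.58 and 10.2 RPM. Reaggregates 3 and 4 were lowest, and the flat cultures labelled de Bruijn were highest. Its log2 fold change was −0.97 with an SE of 0.53 (adjusted p = 0.178 by limma), which did not pass the test, and it was −1.83 (adjusted p = 0.0213) against the flat cultures labelled de Bruijn and −0.11 (adjusted p = 0.914) against the others, which are the lowest and the highest adjusted p over 23 settings. *Thpo* (ENSMUSG00000022847, chr16:20725231-20734584, reverse strand, NCBIM37) had 1.43, 2.19, 1.60, 0.913, 0.466 and 0.449 RPM in reaggregates 1 to 6. Flat cultures 1 to 4 had 1.34, 0.267, 1.72 and 0.760 RPM. The ranges overlapped throughout, flat culture 2 was under its floor of 0.357 RPM, and the log2 fold change was 0.14 (SE 0.38, limma adjusted p = 0.793). The 95% interval of −0.68 to 0.97 is on the scale of log2(RPM + 0.5), which understates changes at such low levels.

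**Figure D2:**
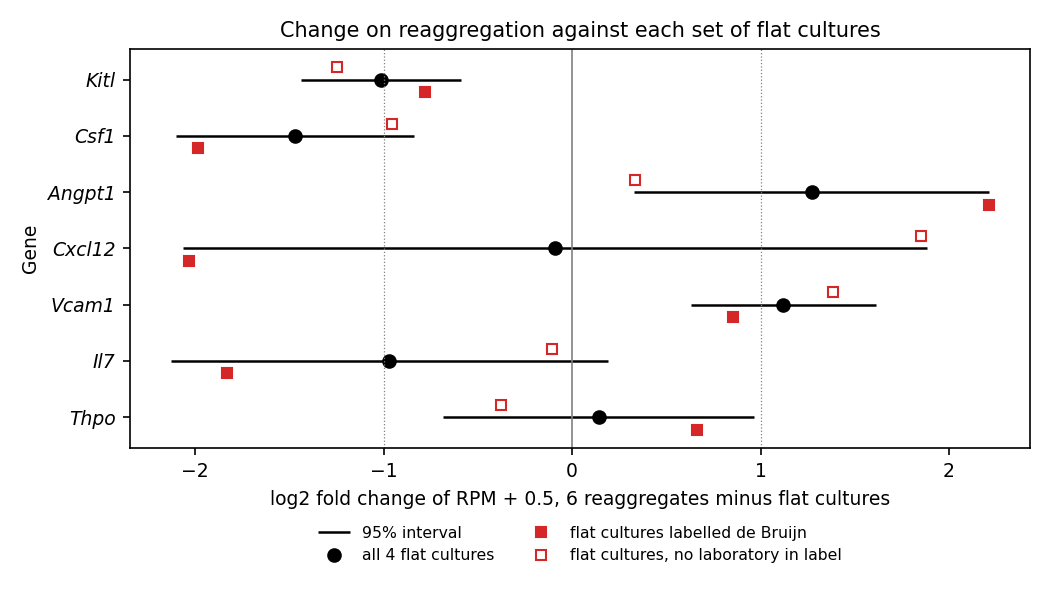
Log2 fold change of RPM + 0.5 (horizontal axis) for each measured niche factor, 6 reaggregates minus flat cultures. Black points and lines are limma estimates with 95% intervals against all 4 flat cultures, squares are estimates against the 2 flat cultures labelled de Bruijn (filled) or the 2 with no laboratory in the label (open), and dotted lines mark a fold of 2; *Cxcl12* lies at −2.03 against the former and 1.85 against the latter.

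The order of the factors was compared as RPM per kb of exon, since RPM grows with transcript length. The length used was that of all annotated exons of a gene combined, not of single transcripts, so the order depends on the annotation. In reaggregates the mean of *Cxcl12* came first with 151 ± 98.6 RPM per kb (SD, n = 6), followed by *Angpt1* with 89.8 ± 26.1 and *Csf1* with 38.7 ± 4.42. *Vcam1* with 30.2 ± 6.47 and *Kitl* with 21.2 ± 3.61 came next, far above *Il7* with 0.888 ± 0.547 and *Thpo* with 0.639 ± 0.375 RPM per kb. *Angpt1* was above *Cxcl12* in reaggregates 5 and 6, at 109 and 119.8 against 66.8 and 70.1 RPM per kb, and *Cxcl12* was highest in reaggregates 3 and 4, at 272 and 281 RPM per kb. Between neighbours in this order, the ranges over libraries were separate for *Angpt1* and *Csf1* and for *Kitl* and *Il7*, and overlapped for the rest. In flat cultures the mean of *Cxcl12* was again first with 285.5 ± 277 RPM per kb (SD, n = 4), ahead of *Csf1* with 118 ± 49.5 and *Angpt1* with 44.6 ± 32.8. *Kitl* followed with 43.6 ± 12.6, then *Vcam1* with 14.2 ± 4.52, *Il7* with 1.95 ± 1.29 and *Thpo* with 0.556 ± 0.348 RPM per kb. The first place of *Cxcl12* rested on flat cultures 2 and 4, at 558 and 488 RPM per kb. In flat culture 1, at 15.3 RPM per kb, it ranked 4th, under *Angpt1*, *Csf1* and *Kitl*, and in flat culture 3, at 81.0 RPM per kb, it ranked 3rd, under *Csf1* and *Angpt1*. The ranges over flat cultures were separate for *Kitl* and *Vcam1* and for *Vcam1* and *Il7*. *Kitl* thus stood above *Vcam1* in flat cultures, whereas *Vcam1* stood above *Kitl* within each of the 6 reaggregates, by as little as 26.8 against 26.7 RPM per kb in reaggregate 1, and their ranges overlapped.

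IL-3 acts on blood progenitors, and whether it altered the stroma was addressed by comparing the 3 reaggregates that received it with the 3 that did not. No member was called, nor was any of the 16933 genes by limma (0% up and 0% down), and 68 genes had an unadjusted p under 0.05. Member log2 fold changes were −0.04 to 0.07, all with an adjusted p of 1. This fit takes the 6 reaggregates as separate, and the spread between consecutive pairs widens its intervals. With consecutive reaggregates as blocks, limma also called 0 genes, and 564 had an unadjusted p under 0.05. In that fit the 95% intervals were narrow for *Csf1* (−0.058 to 0.17), *Cxcl12* (−0.076 to 0.17), *Angpt1* (−0.089 to 0.20) and *Vcam1* (−0.11 to 0.20). They were wider for *Kitl* (−0.22 to 0.35), *Il7* (−0.70 to 0.62) and *Thpo* (−0.62 to 0.54). On the scale of log2(RPM + 0.5), no interval of the 7 reached a 2-fold change. That scale understates changes in RPM at the low levels of *Il7* and *Thpo*. Without blocks the interval of *Cxcl12* was −1.60 to 1.69. Within consecutive reaggregates, of which the even-numbered had IL-3, *Cxcl12* differed by 0.01, 0.05 and 0.07 on the log2 scale, higher with IL-3 in 3 of 3. The means of these pairs spanned 2.01. *Angpt1* differed by at most 0.14 within them and its pair means spanned 0.97, and for *Il7* these values were 0.70 and 1.83.

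The flat cultures allowed the 2 cultures labelled de Bruijn to be compared with the 2 that carried no laboratory in the label. *Angpt1* was lower in the former (88.4 and 70.6 RPM against 231 and 369 RPM), with a log2 difference of −1.88 (SE 0.34, limma adjusted p = 0.043), and no other member was called. Of all genes, 1.82% were called up and 3.87% down in this comparison. *Cxcl12* stood at 4560 and 3990 RPM against 125 and 662 RPM, the widest gap of the 7, with a log2 difference of 3.89 (SE 0.82, limma adjusted p = 0.061). *Il7* stood at 10.7 and 10.2 RPM against 2.19 and 3.58 RPM, a log2 difference of 1.72 (SE 0.39, limma adjusted p = 0.07). Both passed where genes under a mean of 1 RPM were left out or another scaling was used, with adjusted p of 0.00646 to 0.0439 for *Cxcl12* and 0.0232 to 0.0467 for *Il7*; over all 10 settings these ran to 0.399 and 0.482. The 2 sets did not overlap for *Csf1*, *Cxcl12* and *Il7*, which were higher in the cultures labelled de Bruijn, and for *Angpt1* and *Thpo*, which were lower. With 2 cultures a side, 18.2% of tested genes lay higher and 34.1% lower without overlap, so such separation was common. Leaving out any of the 4 cultures ended the call of *Angpt1* (adjusted p = 0.114 to 0.326).

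Several receptors of the niche factors were at or under detection in these stromal cells. Of the listed receptor genes, 6 were above 0.5 RPM in at least 1 library, and none of these was called in either direction between reaggregates and flat cultures. *Kit*, *Flt3*, *Il7r* and *Tie1* were at or below 3 reads in each of the 10 libraries, and *Tek*, the receptor of *Angpt1*, exceeded that floor in 2, with at most 0.409 RPM. These receptors belong to blood or endothelial cells, and the receptors named here other than *Itgb1* were chosen after their values were seen. The most abundant was the integrin chain *Itgb1*, with 788.5 ± 83.6 RPM over reaggregates (SD, n = 6) and 719.8 ± 52.9 RPM over flat cultures (SD, n = 4). *Ackr3*, the scavenging receptor of *Cxcl12*, was at 35.3 ± 9.09 and 39.1 ± 16.0 RPM in the same order, whereas *Itga4*, which pairs with *Itgb1* to bind *Vcam1*, reached at most 1.18 RPM. The median log2 fold change of the 6 was 0.07, beside 0.04 over all genes tested, and its direction depended on the flat cultures used. It was −0.26 and −0.19 without flat culture 2 or 4, 0.23 and 0.24 without flat culture 1 or 3, 0.52 against the flat cultures labelled de Bruijn and −0.22 against the others.

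A list of proteases that shed or cleave niche factors, such as the membrane-bound form of *Kitl*, also held the metalloproteinase inhibitor *Timp3*. Of its 8 tested genes 3 rose on reaggregation, all of them proteases, and none fell. *Mmp2* (gelatinase A) ranged from 2150 to 2390 RPM in reaggregates and stood at 244, 317, 518 and 179 RPM in flat cultures 1 to 4. Its log2 fold change was 2.97, with an SE of 0.25 and a limma adjusted p of 5.79e-05. *Mmp14*, the membrane-anchored protease that activates the *Mmp2* product, ranged from 1810 to 2050 RPM against 225, 241, 431 and 137 RPM, with a log2 fold change of 3.05. *Mmp9* (gelatinase B), which releases soluble stem cell factor in the marrow, ranged from 11.3 to 40.4 RPM against 0.921, 0, 5.99 and 0.121 RPM. Flat cultures 2 and 4 were under the floor for *Mmp9*, and its log2 fold change was 4.15 (SE 0.65, adjusted p = 0.00129 by limma). That of *Mmp9* was 4.92 without flat culture 3, 5.37 against the flat cultures labelled de Bruijn and 2.93 against the others. These 3 genes were called in each of the 23 alternative settings. The list's median log2 fold change, *Timp3* included, was 0.68. Whether the protein products of *Kitl* or *Vcam1* were cleaved was not measured.

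Regulators and markers of the marrow's reticular stroma, the cells that make *Cxcl12* and *Kitl* in vivo, rose in 3 of 11 tested and fell in none. *Ebf1*, a transcription factor of these cells, rose from 64.1 ± 20.2 RPM in flat cultures to 156 ± 19.0 RPM in reaggregates, by 1.32 on the log2 scale. The receptors *Pdgfra* and *Pdgfrb* had log2 fold changes of 1.58 and 1.74, and all 3 genes were called in each of the 23 settings (limma adjusted p at most 0.0386). The most abundant gene of the list was the homeobox gene *Prrx1*, at 890.3 ± 73.6 RPM in reaggregates and 510.0 ± 210.3 RPM in flat cultures, which did not reach a 2-fold change (log2 fold change 0.89). *Lepr*, also on the list, was low throughout, at 0.397 ± 0.344 RPM in reaggregates and 0.359 ± 0.198 RPM in flat cultures. It was not called (log2 fold change 0.000112), and it was above the floor in 6 libraries, with at most 0.868 RPM. *Ebf2* was above the floor in no library and was not tested. Whether the cells became more like reticular stroma was not tested. The median of the list was 0.67. *Cspg4* and *Nes*, pericyte and progenitor markers, lay the other way without being called (log2 fold changes −3.68 and −1.09). *Cspg4* was at 0, 164, 0.599 and 88.1 RPM in flat cultures 1 to 4 and at most 0.817 RPM in reaggregates. *Nes* was at 0, 1.55, 0.24 and 2.31 RPM in the same flat cultures and at most 0.327 RPM in reaggregates. For both, flat cultures 1 and 3 were level with the reaggregates, and the gap came from the cultures labelled de Bruijn. Without flat culture 1 the list had 3 genes called up and 2 down, without flat culture 3 it had 5 and 2, and against the flat cultures labelled de Bruijn 6 and 2. *Cxcl12* itself was called down against the flat cultures labelled de Bruijn, and not without flat culture 1 or 3.

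Among 16 other tested factors by which stroma acts on blood cells, 3 rose and 1 fell, and the median log2 fold change was −0.10. The Notch ligand *Jag1* ranged from 212 to 292 RPM in reaggregates and was 70.6, 23.4, 168 and 8.99 RPM in flat cultures 1 to 4, so that *Jag1* rose by 2.60 on the log2 scale (SE 0.61, adjusted p = 0.00981 by limma), by 4.03 against the flat cultures labelled de Bruijn and by 1.16 against the others. *Dll1*, another Notch ligand, was at 2.96 ± 1.76 RPM against 0.699 ± 0.412 RPM, a log2 fold change of 1.46. Flat culture 1, at 0.201 RPM, was under its floor of 0.345 RPM for *Dll1*. The call of *Dll1* was lost against the flat cultures labelled de Bruijn (log2 fold change 1.15, limma adjusted p = 0.0637). *Epo*, the erythroid growth factor, was at 30.9 ± 16.6 RPM against 9.77 ± 9.22 RPM, a log2 fold change of 1.73 whose call was lost without any of reaggregates 1 to 4 or flat cultures 1, 2 or 4 (limma adjusted p = 0.0755 to 0.103). The gene that fell was *Tnfrsf11b* (osteoprotegerin, the decoy receptor of RANKL), at no more than 6.21 RPM in any reaggregate against 12.5, 127, 9.34 and 159 RPM in flat cultures 1 to 4 (limma adjusted p = 0.0111). With consecutive reaggregates averaged, none of these 4 was called (adjusted p of 0.0814 to 0.147, beside 9.45e-07 to 0.243 over 23 settings). *Spp1* (osteopontin) was the most abundant of the list, at 3178 ± 1740 RPM in reaggregates and 7582 ± 4496 RPM in flat cultures, and was not called.

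Other adhesion molecules of the niche rose in 1 of 7 tested and fell in 2, with a median log2 fold change of −0.31. *Alcam* was at 0.533 ± 0.362 RPM in reaggregates, against 3.31 ± 0.780 RPM in flat cultures, and its log2 fold change of −1.93 was called in each of the 23 settings. Its level was low throughout. Reaggregates 3 and 4, at 0.109 and 0.256 RPM, were under their floors of 0.327 and 0.384 RPM for *Alcam*. *Cdh2* (N-cadherin) ranged from 88.4 to 139 RPM in reaggregates and was 44.4, 0.239, 70.3 and 0.365 RPM in flat cultures 1 to 4, so that it was under the floor or close to it in the cultures labelled de Bruijn. *Selp* (P-selectin) was the reverse, with at most 0.853 RPM in reaggregates and 0.738, 74.6, 0.681 and 48.5 RPM in flat cultures 1 to 4. Their log2 fold changes of 3.98 and −3.52 (limma adjusted p = 0.0269 and 0.0349) rested on those cultures: against the other flat cultures they were 0.91 and −0.70. Without reaggregate 4 or flat culture 2 or 4 the call of *Cdh2* was lost (adjusted p = 0.0515 to 0.0936), as was that of *Selp* without those or reaggregate 1, 2, 5 or 6 (adjusted p = 0.0506 to 0.12). With consecutive reaggregates averaged both calls were lost (adjusted p = 0.161 and 0.178), and the list then had 0 genes called up and 1 down by limma, beside 3.23e-08 to 0.161 for *Cdh2* and 3.58e-06 to 0.242 for *Selp* over 23 settings. *Fn1* (fibronectin), the most abundant of the list, was at 16242 ± 5447 RPM in reaggregates and 10690 ± 6644 RPM in flat cultures and was not called.

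Some defining markers of blood cells were at 0 and others were not. Of 10 listed blood and macrophage markers, 9 were found and 5 tested, with none called; *Ptprc*, the pan-leukocyte gene, and the macrophage gene *Adgre1* were at 0 in all 10 libraries, whereas *Cd34* and *Lyz2* reached 72.6 and 48.5 RPM, both in flat culture 1, and *Cd68* reached 8.23 RPM. The list summed to 48.5, 49.1, 19.8, 20.6, 76.7 and 84.9 RPM in reaggregates 1 to 6, with 123, 16.3, 63.4 and 13.4 RPM for flat cultures 1 to 4. Its most abundant gene was *Cd34*, which stromal cells can also express, and the part of other cells in the results was not tested. Of 8 endothelial markers 2 were tested. *Cdh5*, *Kdr* and *Tie1* were at or below 3 reads throughout, and *Vwf* rose, at 2.82 ± 2.07 RPM against 0.266 ± 0.173 RPM (log2 fold change 1.88, limma adjusted p = 0.011; 0.0561 with consecutive reaggregates averaged, and 0.00677 to 0.0841 over 23 settings). Its level was low throughout, and the 8 markers together summed to 1.29 to 6.18 RPM in reaggregates and 0.576 to 0.962 RPM in flat cultures.

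Mesenchymal markers rose in 5 of 8 tested, of which *Pdgfra* and *Pdgfrb* are also counted above for reticular stroma, and fell in 1. They summed to 36240 to 45604 RPM in reaggregates and 20048 to 34559.8 RPM in flat cultures. *Col3a1* rose most, from 345, 38.8, 960 and 31.5 RPM in flat cultures 1 to 4 to between 1850 and 3200 RPM, which is 4.11 on the log2 scale (SE 0.81, adjusted p = 0.00439 by limma). *Col1a1* and *Col1a2* had log2 fold changes of 1.93 and 1.83, and *S100a4* fell by 2.39 on the log2 scale. Against the flat cultures labelled de Bruijn the log2 fold changes of *Col3a1*, *Col1a1* and *Col1a2* were 6.12, 2.72 and 2.60. Against the others they were 2.10, 1.14 and 1.05, and *Col1a2* was not called there (limma adjusted p = 0.0767). Its call was also lost with no filter on low values (limma adjusted p = 0.07455). *Vim* was not called (log2 fold change −0.54, limma adjusted p = 0.0787), at 4540 ± 251 RPM in reaggregates and 6622.5 ± 951 RPM in flat cultures. It was among the 11.4% of tested genes that lay lower in every reaggregate than in any flat culture. *Thy1* was at or below 3 reads in every library and was not tested. *Fn1* was again the most abundant. The calls of the 3 collagens were lost with consecutive reaggregates averaged (limma adjusted p = 0.0687 to 0.0946; 2.08e-07 to 0.101 over 23 settings), and that of *S100a4* was kept in each of the 23 settings.

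Osteoblast markers rose in 1 of 6 tested, *Dmp1*, from 0.115, 0, 2.16 and 0 RPM in flat cultures 1 to 4 to between 8.85 and 16.7 RPM (log2 fold change 3.87, limma adjusted p = 0.000223). *Runx2* was the most abundant of them at 78.9 ± 20.1 RPM in reaggregates and 46.6 ± 15.1 RPM in flat cultures. The list summed to 73.3 to 119 RPM in reaggregates and 39.0 to 80.7 RPM in flat cultures.

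Adipocyte markers fell in 3 of 6 tested: *Pparg*, *Cebpa* and *Fabp4*, with log2 fold changes of −1.67, −1.36 and −2.37 (limma adjusted p = 0.0329, 0.019 and 0.0385). *Pparg*, the master regulator of fat cells, was at 36.0 to 46.7 RPM in reaggregates and at 49.4, 395, 58.1 and 295 RPM in flat cultures 1 to 4. *Fabp4* was at 19.1 to 44.4 RPM against 31.3, 435, 47.2 and 711 RPM. Both were thus high in the cultures labelled de Bruijn, where *Cxcl12* and *Il7* were also high and *Angpt1* was low. Without flat culture 2 or 4 the log2 fold changes were −1.16 and −1.30 for *Pparg*, −0.98 and −1.20 for *Cebpa* and −1.85 and −1.61 for *Fabp4*, and the calls were lost. Those of *Pparg* and *Fabp4* were also lost without any of reaggregates 1 to 5, and that of *Fabp4* without reaggregate 6 (limma adjusted p = 0.0503 to 0.0715). With consecutive reaggregates averaged none of the 3 was called by limma (adjusted p = 0.136 to 0.185), and against the flat cultures with no laboratory in the label their log2 fold changes were −0.34, −0.54 and −0.45 (adjusted p = 0.122 to 0.361), beside adjusted p of 7.64e-07 to 0.361 over 23 settings. *Lpl* and *Adipoq* differed from this: *Lpl* was at 365 and 331 RPM in flat cultures 2 and 4 and at 358 RPM in flat culture 3, and *Adipoq* was at most 0.768 RPM in any library. *Plin1* was low but, like *Pparg* and *Fabp4*, highest in the cultures labelled de Bruijn. It was at 1.43 and 1.21 RPM in flat cultures 2 and 4 and at 0 in flat cultures 1 and 3. The part of these genes in the levels of the niche factors was not tested.

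The genes most like *Kitl*, *Csf1*, *Angpt1*, *Cxcl12* and *Vcam1*, the 5 members with a mean of at least 5 RPM, were found by the root mean square difference of log2(RPM + 0.5), centred for each gene over the 10 libraries, among 11661 genes past the same limit. *Kitl* was followed most closely by *Cep192*, a centrosome gene, at a distance of 0.14, and then by *Fam129a* and *Ssx2ip* at 0.18 each. *Cep192* ranged from 5.53 RPM in reaggregate 5 to 15.9 RPM in flat culture 3, which was also the highest library for *Kitl*. For *Csf1* the nearest were *Cyr61*, *Raph1* and *Amotl2*, at 0.17, 0.23 and 0.23. *Cyr61*, a matricellular protein gene, had 259 RPM in flat culture 1 and 723, 807 and 877 RPM in flat cultures 2 to 4, against 193 to 238 RPM in reaggregates.

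*Angpt1* was nearest to *Eif2c1*, an Argonaute gene, at 0.13, and then to AC168276.1 and the collagen VI gene *Col6a1*, at 0.13 and 0.14. AC168276.1 and *Col6a1* had nearly the same value in each library (1630 and 1640 RPM in reaggregate 1), so the reads behind them cannot be told apart. *Vcam1* was nearest to the protocadherin gene *Pcdh7* at 0.12, *Zfp358* at 0.16 and 1810031K17Rik at 0.18. *Cxcl12* had no neighbour as close. Its nearest were *Cygb* (cytoglobin) at 0.47, AC129205.1 at 0.52 and *Manba* at 0.53, beside its own root mean square deviation from its mean of 1.49. *Cygb* had 72.3 and 79.6 RPM in reaggregates 3 and 4, 77.1 and 45.3 RPM in flat cultures 2 and 4, and 3.68 RPM in flat culture 1.

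Promoters are shown for *Kitl* and *Csf1*, which were both called lower in reaggregates, and for *Cxcl12*, which varied most. They were taken from the RefSeq promoter table in GRCm38.p6, a later build than that of the gene coordinates above, and 5 of the 8 factors had an entry (*Kitl*, *Flt3l*, *Csf1*, *Cxcl12* and *Thpo*). Each is the 250 bases before the annotated start, 5′ to 3′ on the gene's strand, with capitals marking matches on either strand to the GC box, spelled GGGCGG, or to the sequence of the TATA box, spelled TATAAA.
*Kitl*, chr10:100015571-100015820, forward strand: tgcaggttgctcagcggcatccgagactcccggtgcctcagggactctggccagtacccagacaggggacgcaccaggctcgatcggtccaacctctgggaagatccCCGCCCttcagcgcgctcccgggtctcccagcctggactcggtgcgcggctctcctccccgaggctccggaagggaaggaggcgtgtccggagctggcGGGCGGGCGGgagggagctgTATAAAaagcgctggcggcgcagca
*Csf1*, chr3:107760470-107760719, reverse strand: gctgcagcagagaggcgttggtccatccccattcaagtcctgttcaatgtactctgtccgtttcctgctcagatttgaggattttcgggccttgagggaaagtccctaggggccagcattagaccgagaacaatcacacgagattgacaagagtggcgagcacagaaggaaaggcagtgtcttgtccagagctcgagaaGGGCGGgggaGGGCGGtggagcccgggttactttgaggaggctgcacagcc
*Cxcl12*, chr6:117168285-117168534, forward strand: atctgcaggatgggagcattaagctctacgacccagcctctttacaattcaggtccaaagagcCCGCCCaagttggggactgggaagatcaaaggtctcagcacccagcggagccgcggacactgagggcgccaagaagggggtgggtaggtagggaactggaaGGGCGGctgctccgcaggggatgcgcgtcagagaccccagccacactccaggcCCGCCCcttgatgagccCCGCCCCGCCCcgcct

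*Kitl* has 3 matches to the GC box, of which 2 overlap each other, and a TATA box that begins 25 bases before the start. *Csf1* has 2 and *Cxcl12* 5 matches to the GC box, and neither has TATAAA. Both strands were also searched for the letters CCAAT of the box named after them, for TGACTCA as the AP-1 site, for CACGTG as the E-box and for TTCNNNGAA as the GAS element. None of these 4 occurs in the 3 windows. Of 32851 promoter windows of this length, 32.7% hold GGGCGG, 12.4% TATAAA, 33.8% CCAAT, 4.46% TGACTCA, 6.02% CACGTG and 7.02% TTCNNNGAA. The share of G and C was 69.2% for *Kitl*, 56.4% for *Csf1* and 64.4% for *Cxcl12*, with a median of 52.4% over these windows. A match is a string of letters, and no binding was measured here.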

How the data were processed

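Total RNA was sequenced from 6 reaggregates and 4 flat cultures of OP9 cells. The authors aligned reads to mm9 (NCBIM37) with TopHat 1.2.0, summed them over Ensembl genes, divided ambiguous reads among genes, and deposited the values of each library as RPM, scaled to its reads assigned to genes. The authors' own log2 fold changes and adjusted p values (DESeq) were not used. Each of the 10 value columns was matched to a sample, with 0 unmatched. Genes above 0.5 RPM in at least 1 library were fitted as log2(RPM + 0.5) with limma 3.58.1 (empirical Bayes with a mean trend) in R 4.3.3, and p-values were adjusted over all genes tested by the Benjamini-Hochberg method. This scale understates fold changes of genes near 0.5 RPM. No count test was used, because at most 34.8% of values up to 10 RPM were within 0.02 of a whole number of reads. Depth was estimated by taking the commonest low value of each library as the RPM of 1 read. Gene positions and exon lengths came from GENCODE, which held 95.6% of the genes. Python 3.11.15, pandas 2.3.3 and matplotlib 3.10.9 made summaries and plots. Members and lists were chosen with earlier results of these data known. Genes named besides the members are those called in each list (the 4 with the largest change where more were called), its most abundant gene, and the 3 genes nearest each member with a mean of at least 5 RPM; all other genes, such as receptors and markers at 0, were chosen after their values were seen. Alternatives changed the pseudocount, filter, scaling, replicate block and libraries.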

Additional observations from a re-analysis of the deposited data

Results flagged for a closer look

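A library far from the others of its group was found in 3 of the 58 groups of values examined, where chance gives about 1 in 20, or 2.9. These were *Epo* at 23.5 RPM, *Mmp9* at 5.99 RPM and *Dmp1* at 2.16 RPM, each in flat culture 3. Between the flat cultures labelled de Bruijn and those with no laboratory in the label, *Angpt1* and 19 genes of the lists were called by limma, so that the effect of reaggregation on them differed with the flat cultures used. Of all 16933 genes tested, 1.82% were called up and 3.87% down in the same comparison. The log2 difference, de Bruijn minus the others, was −1.88 for *Angpt1*. It was positive for 9 of the list genes: 7.35 for *Cspg4*, 5.65 for *Selp*, 3.84 for *Fabp4*, 3.66 for *Tnfrsf11b*, 2.66 for *Pparg*, 2.25 for *Icam1*, 1.98 for *Nes*, 1.86 for *Plin1* and 1.33 for *Sp7*. It was negative for 10: −6.47 for *Cd34*, −6.14 for *Cdh2*, −4.02 for *Col3a1*, −3.85 for *Alpl*, −2.99 for *Ptn*, −2.23 for *Itgb7*, −2.18 for *Lyz2*, −1.93 for *Il2rg*, −1.88 for *Timp3* and −1.59 for *Grem1*. Without any 1 of the 4 cultures 0 genes were called by limma, beside 3899 at an unadjusted p under 0.05 with all 4. The cause was not tested.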

How the results depend on the processing

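Of the 4 called members none turned direction in 23 alternative settings and each lost its call in some, and of 22 called genes of the lists 9 were called in every setting and 13 lost the call in some, with no reversal. Leaving out 1 library at a time gave 766 to 2121 genes called up, 2 to 3 members called, log2 fold changes of −1.14 to 0.59 for *Cxcl12* and −0.15 to 0.36 for *Thpo*, and medians of −0.26 to 0.24 for receptors, 0.48 to 0.95 for reticular stroma and −0.20 to 0.49 for osteoblast markers. Averaging consecutive reaggregates, which leaves fewer samples, gave 312 genes up, 429 down and 0 members. A replicate block on the numbers 1 to 4 gave 1884 genes up, 2 members and 0.36 for *Cxcl12*. The same 8 libraries without the block, a setting chosen after seeing the data, gave 1898, 2 and 0.36, so the smaller set of libraries gives these values without the block. The numbers do not pair the samples: same-number correlations were −0.041, −0.213, 0.072 and 0.155.

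With the IL-3 reaggregates alone 277 genes were called up, 360 down and 0 members, and with those without IL-3 345, 474 and 0. Against the flat cultures labelled de Bruijn 2579 genes were up and 1775 down, with medians of 0.52 for receptors, 0.42 for other factors, 1.01 for proteases, 1.31 for reticular stroma, −1.84 for adipocyte and 0.65 for osteoblast markers. Against the other flat cultures 627 genes were up and 2 members were called, *Cxcl12* was at 1.85 and *Thpo* at −0.38, and medians were −0.22 for receptors, −0.66 for other factors, 0.97 for proteases, 0.40 for reticular stroma, 1.10 for mesenchymal and −0.22 for adipocyte markers. The endothelial median was 0.14 with no filter on low values and 1.88 with a mean of at least 1 RPM required, where that of reticular stroma was 1.09. Both follow from which genes are tested. The scalings moved the median of all genes by −0.05 (quantile) and −0.01 (median ratio).

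For IL-3, 0 genes were called by limma in 13 settings, with 68 genes at an unadjusted p under 0.05 in all 6 reaggregates and 564 with consecutive reaggregates as blocks. Leaving out 1 reaggregate, log2 fold changes ran from −0.033 to 0.26 for *Kitl*, −0.052 to 0.14 for *Csf1*, −0.24 to 0.33 for *Angpt1*, −0.52 to 0.60 for *Cxcl12*, −0.14 to 0.23 for *Vcam1*, −0.43 to 0.59 for *Il7* and −0.44 to 0.31 for *Thpo*. Between the flat cultures by label, 247 genes and 0 members were called with no filter, 1496 genes and 3 members with a mean of at least 1 RPM required, and 3 members with quantile or median-ratio scaling. Without any 1 of the 4 cultures 0 genes and 0 members were called by limma, beside 3899 genes at an unadjusted p under 0.05 with all 4, and the lone culture is then assumed to vary like the others. Except where fewer samples or other genes tested are named, the cause was not tested. Depth limits *Il7* and *Thpo* most, since they lie closest to the 3-read floor.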
